A study of Danio rerio with 3 samples.

Results

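The globin and heme genes examined here were 9 genes that mark zebrafish erythrocytes, and they were chosen by name: the beta-type globins hbbe1, hbbe2 and hbbe3, the alpha-type globins hbae1 and hbae3, the heme synthesis gene alas2, the transcription factor gene gata1a, and the membrane genes slc4a1a and epb41b. Of these names, 8 were found among the 21098 entries of the deposited table. The gene epb41b was not listed under that name. The table lists as epb41 the gene that RefSeq (assembly GRCz12tu) now calls epb41b, and its values are given beside those of the 8 members.

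Erythrocytes carry oxygen on hemoglobin, a tetramer of alpha-type and beta-type globin chains that each hold a heme group. Zebrafish switch from embryonic and larval globin genes to adult ones as they grow, and their erythrocytes keep a nucleus and go on holding RNA in circulation. Heme is built from glycine and succinyl-CoA in a pathway that starts and ends in the mitochondrion. Its first step in erythroid cells is made by Alas2, the erythroid 5-aminolevulinate synthase, and in other cells by Alas1. Gata1 drives the transcription of globin and heme genes in the erythroid lineage.

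Whole larvae of the Tuebingen wild-type strain were pooled at 6 dpf after exposure from a few hours post-fertilization to 0.1% DMSO vehicle, to 5 μg/L BDE47 or to 500 μg/L BDE47, both BDE47 solutions holding the same share of DMSO. BDE47 (2,2′,4,4′-tetrabromodiphenyl ether) is a brominated flame retardant. Each of the 3 conditions was sequenced as 1 library from 1 pool, so that no difference below has a replicate check. The deposited values are normalized counts, that is, reads per gene model after TMM scaling between the libraries. The doses of 5 and 500 μg/L are called the low and the high dose below. The reads behind the values were recovered, and the libraries held 41474296 of them for vehicle, 30463582 for the low dose and 27004647 for the high dose. Fold changes are ratios of normalized counts, and their 95% confidence intervals (CI) are exact Clopper-Pearson intervals that cover counting error only. Counting error here is that of reads taken as independent. Reads without molecular identifiers are not independent molecules, so the intervals can be too narrow even for it. A gene is called changed here when its fold change reached 2, or 0.5 in the other direction, and when 1 or both of the libraries compared held 10 normalized counts or more.

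Apart from hbbe3, the erythrocyte genes were detected in every library, and the 12 globin entries of the table together took 0.0884% of the reads on named mRNA genes with vehicle, 0.0851% at the low dose and 0.149% at the high dose. These reads were almost all on embryonic and larval globins. The 3 adult globin entries, ba1, ba1l and hbaa1, held 8 reads with vehicle, 0 at the low dose and 2 at the high dose, and ba1 was at 0 in all 3 libraries. In whole larvae, more erythrocytes and more globin RNA per erythrocyte cannot be told apart.

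The beta-type globins were higher at the high dose than in either other library. The most abundant in reads was hbbe1, which had 7509 normalized counts with vehicle, 7650 at the low dose and 13978 at the high dose. The high-dose library thus stood apart, with a fold change of 1.86 against vehicle (95% CI 1.81 to 1.91), while the low dose and vehicle lay close together with a fold change of 1.02 (95% CI 0.988 to 1.05). The second beta-type gene, hbbe2, had 1978 normalized counts with vehicle, 1560 at the low dose and 3243 at the high dose. Here the low-dose library was the lowest, at a fold change of 0.789 (95% CI 0.738 to 0.842), and that of the high dose the highest, at 1.64 (95% CI 1.55 to 1.73). The third, hbbe3, was near the limit of detection, having 0 reads with vehicle, 1 at the low dose and 5 at the high dose. It stayed under the minimum of 10 normalized counts, and its level at the high dose was 2.63 times the floor of 3 reads with vehicle. This is no lower bound for counting error, since the counting interval of the ratio began at 1.45.

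The alpha-type globins followed the same order at the high dose. The normalized counts of hbae3 were 5289 with vehicle, 5664 at the low dose and 8972 at the high dose. Its fold changes were 1.70 at the high dose (95% CI 1.64 to 1.75) and 1.07 at the low dose (95% CI 1.03 to 1.11). The other member, hbae1, had 1461 normalized counts with vehicle, 1218 at the low dose and 2275 at the high dose. As for hbbe2, its lowest value was that of the low dose, with a fold change of 0.833 (95% CI 0.773 to 0.898), against 1.56 at the high dose (95% CI 1.46 to 1.66). None of the 4 globin members that passed the minimum reached a fold change of 2 against vehicle at either dose. Of all genes tested, 12.1% were changed at the high dose and 2.92% at the low dose.

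**Figure D1:**
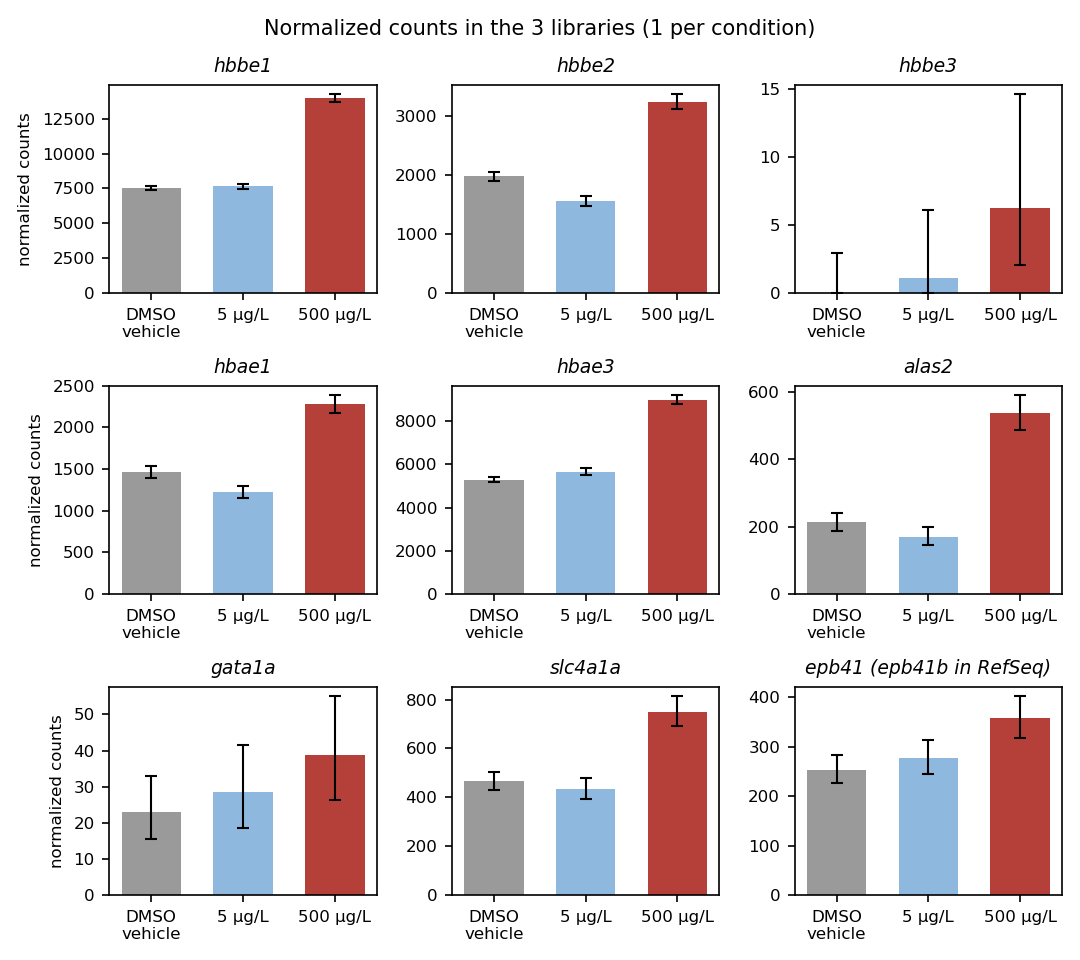
Normalized counts (vertical axes, each from 0 on its own scale) of the 8 members and of epb41 in DMSO vehicle, at the low dose (5 μg/L) and at the high dose (500 μg/L), with 1 library per bar and error bars for the 95% counting interval. In each panel the bar of the high dose is the highest, from 6.25 normalized counts for hbbe3 to 13978 for hbbe1, and for hbbe2, hbae1, alas2 and slc4a1a the bar of the low dose is the lowest.

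Besides the 5 globin members, the table held 4 other embryonic or larval globin entries, under names that RefSeq has since replaced. Of these, MGC173646 (hbbe1.2) was at a fold change of 1.67 at the high dose (95% CI 1.61 to 1.74), LOC573653 (hbbe1.3) of 1.84 (95% CI 1.74 to 1.94) and LOC100334599 (hbae1.3) of 1.53 (95% CI 1.44 to 1.61). Their fold changes at the low dose were 0.958, 1.08 and 0.836 in the same order. The fourth, LOC561790 (hbae5, an alpha-type globin), was rare and had 34 reads with vehicle, 24 at the low dose and 112 at the high dose. It was the only globin entry that changed at the high dose, at 5.21-fold (95% CI 3.52 to 7.88). Its fold change at the low dose was 0.976 (95% CI 0.554 to 1.70). The changed share at the high dose was thus 12.5% of the 8 globin entries that passed the minimum, near the 12.1% of all genes tested. Several globin genes are close copies of one another. How the counting treated reads that match several copies is not given in the sources used here, so the values of single copies are uncertain.

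**Figure D2:**
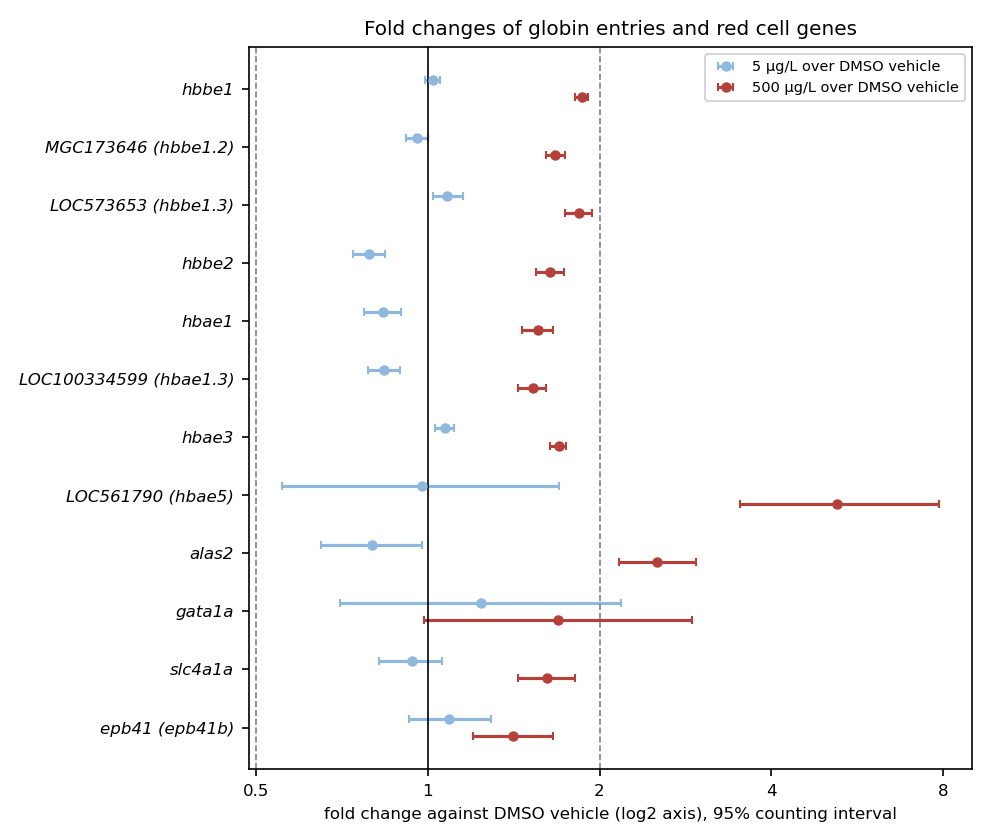
Fold changes against vehicle (horizontal log2 axis) at the low dose (blue) and the high dose (red) of the globin entries, alas2, gata1a, slc4a1a and epb41, with 95% counting intervals; dashed lines mark 0.5 and 2. The red points of alas2 (2.52) and LOC561790 (5.21) lie beyond 2, the other red points lie between 1.41 and 1.86, and the blue points lie between 0.789 and 1.24.

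Summed over the 12 globin entries, the level was 1.73-fold higher at the high dose (95% CI 1.71 to 1.76) and 0.980-fold at the low dose (95% CI 0.963 to 0.997). This sum does not depend on how reads were divided among these entries, but any reads left out of the counting are missing from it. The 7 beta-type entries together had a summed fold change of 1.78 at the high dose (95% CI 1.75 to 1.82) and the 5 alpha-type entries of 1.64 (95% CI 1.60 to 1.69). The reads on alpha-type entries per read on beta-type entries, a ratio that does not depend on the scaling between libraries, were 0.578 with vehicle, 0.576 at the low dose and 0.533 at the high dose. The 95% CI at the high dose (0.521 to 0.545) did not overlap that with vehicle (0.564 to 0.591), so that the alpha-type share was slightly lower at the high dose beyond counting error.

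Zebrafish globin genes lie in 2 clusters. In RefSeq the larger holds hbbe1 and its copies, hbae1 and its copies, hbae3 and the adult genes, and the smaller holds hbbe2, hbbe3, hbae4 and hbae5. No entry was found for hbae4 or for the hbae1 copy hbae1.2, so the alpha-type and cluster sums lack them. The 6 embryonic entries of the larger cluster had a summed fold change of 1.74 at the high dose (95% CI 1.71 to 1.76), and the 3 entries of the smaller cluster one of 1.69 (95% CI 1.60 to 1.78). At the low dose the clusters differed, with 0.997 for the larger (95% CI 0.979 to 1.02) and 0.792 for the smaller (95% CI 0.742 to 0.845), and nearly all reads of the smaller cluster were on hbbe2. Within the larger cluster, however, the copies of hbae1 were also lower at the low dose while hbbe1 and hbae3 were not. The reads on hbae1 per read on hbae3 were 0.276 with vehicle, 0.215 at the low dose and 0.254 at the high dose. The reads on hbbe2 per read on hbbe1 followed the same order and were 0.263 with vehicle, 0.204 at the low dose and 0.232 at the high dose. Between the copies of hbae1 no difference beyond counting error was seen, since LOC100334599 had 1.34 reads per read of hbae1 with vehicle, 1.34 at the low dose and 1.31 at the high dose, with overlapping intervals. The copies of hbbe1 differed in this. Per read of hbbe1, MGC173646 had 0.507 reads with vehicle (95% CI 0.490 to 0.525) and 0.477 at the low dose. At the high dose it had 0.456 (95% CI 0.441 to 0.471), an interval that did not overlap that of vehicle. For LOC573653 the ratios were 0.243, 0.259 and 0.240 in order of dose, with overlapping intervals.

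The heme synthesis gene alas2 was the only member that changed against vehicle. It had 213 normalized counts with vehicle (269 reads), 169 at the low dose (155 reads) and 536 at the high dose (429 reads). At the high dose it was 2.52-fold higher (95% CI 2.16 to 2.95), and its interval lay above those of hbbe1, hbbe2, hbae1 and hbae3. At the low dose its value was lower than with vehicle, with a fold change of 0.797 (95% CI 0.650 to 0.975). Set against the globins of the same library, alas2 had 89.1 reads per 10000 globin reads with vehicle (95% CI 78.7 to 100.5), 72.5 at the low dose (95% CI 61.5 to 84.9) and 129.7 at the high dose (95% CI 118 to 143). The scaling between libraries cancels in this ratio, and the interval of the high dose stood clear of the other pair.

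The 2 membrane genes differed less. The gene slc4a1a encodes the anion exchanger band 3, which trades bicarbonate for chloride across the erythrocyte membrane, and it had 465 normalized counts with vehicle, 435 at the low dose and 751 at the high dose. Its fold change was 1.62 at the high dose (95% CI 1.44 to 1.81) and 0.936 at the low dose (95% CI 0.822 to 1.06), which is within counting error. Per 10000 globin reads it had 195 reads with vehicle, 186 at the low dose and 182 at the high dose, and the 3 intervals overlapped. The entry epb41, for protein 4.1, which ties the membrane to the spectrin skeleton, had 254 normalized counts with vehicle, 278 at the low dose and 359 at the high dose. Its fold change of 1.41 at the high dose, with an interval above 1, was the smallest of the 9 genes apart from hbbe3. Per 10000 globin reads it had 106 reads with vehicle, 119 at the low dose and 86.8 at the high dose, the last with an interval (77.0 to 97.5) that overlapped that of vehicle but not that of the low dose.

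The transcription factor gene gata1a was thinly covered and had 29 reads with vehicle, 26 at the low dose and 31 at the high dose, or 22.9, 28.4 and 38.7 normalized counts in that order. Its fold changes of 1.24 at the low dose (95% CI 0.702 to 2.18) and 1.69 at the high dose (95% CI 0.985 to 2.91) had intervals that include 1, so no difference was detectable at this depth.

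**Figure D3:**
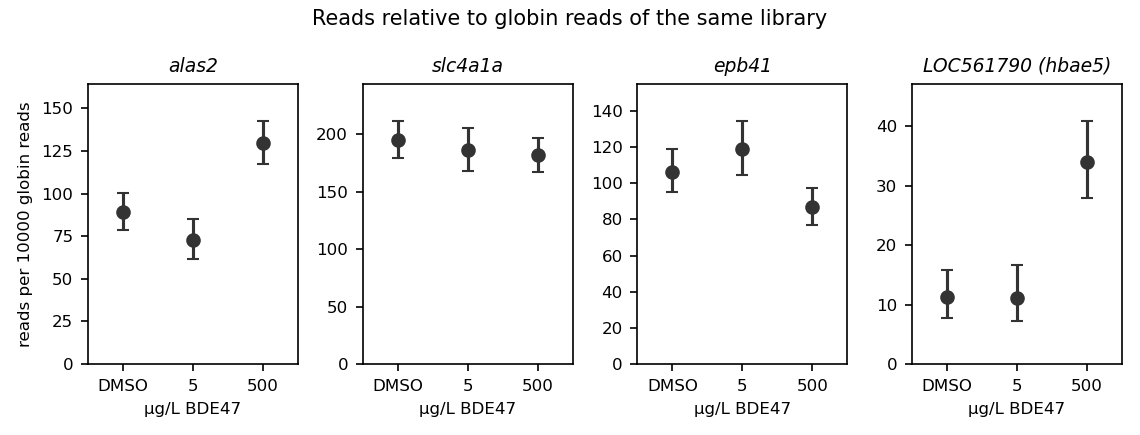
Reads of alas2, slc4a1a and epb41 per 10000 reads on all 12 globin entries, and of LOC561790 per 10000 reads on the other globin entries (vertical axes from 0), in the 3 libraries with 95% counting intervals. At the high dose alas2 (129.7) and LOC561790 (34.0) stand above their values with vehicle (89.1 and 11.3), and slc4a1a stays between 182 and 195.

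As a group, 7 of the 8 members passed the minimum, each with at least 10 normalized counts in all 3 libraries, and all 7 had higher values at the high dose than with vehicle. Only 1 of the 7, alas2, was changed, beside 12.1% of the 17758 genes tested in that comparison (7.40% higher), so the share of members past a fold change of 2 was near the background. Their median log2 fold change (pseudocount 1) was 0.73, beside a median of -0.02 over all genes tested. Of all genes tested, 48.9% had a higher value at the high dose and 31.0% had a counting interval wholly above 1, as 6 of the 7 members did. A fold change of at least 1.5, a threshold added after the values were seen, was reached by 7 of 7 members and by 17.0% of all genes. The entry epb41, at 1.41, did not reach it, so with epb41 the count was 7 of 8. For the 4693 genes that reached 1000 normalized counts in any library, log2 fold changes had an SD of 0.56 (from the median absolute deviation), and those of the 4 globin members lay between 0.64 and 0.90. The exact test of edgeR on the reads was combined with the fold change threshold, so members that did not reach it could not be called. With a BCV (the variation between samples) of 0.2 or 0.4 assumed in place of replicates, 0 members were called at either dose against vehicle. Of all genes, 687 and 19 were called at the high dose with these BCVs, and 5 and 0 at the low dose.

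No member was changed at the low dose, beside 2.92% of the 17670 genes tested. The median log2 fold change of the 7 members was -0.09, beside 0.01 over all genes, and 3 of them lay above and 4 below their value with vehicle. The intervals of hbbe2, hbae1 and alas2 lay wholly below 1 and that of hbae3 above it. Over all genes, 21.5% had an interval above 1 and 17.8% below it. The same SD over well-counted genes was 0.19 at this dose.

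The direct comparison of the doses does not use the vehicle library. Between the high and the low dose, 2 of the 7 members were changed, both higher, beside 11.5% of the 17707 genes tested (7.39% higher). They were alas2, at 3.16-fold (95% CI 2.63 to 3.83), and hbbe2, at 2.08-fold (95% CI 1.95 to 2.22). The fold changes of hbbe1, hbae1, hbae3 and slc4a1a lay between 1.58 and 1.87, and that of gata1a was 1.36 (95% CI 0.783 to 2.39). A fold change of at least 1.5 was reached by 6 of the 7 members and by 16.8% of all genes, and the median log2 fold change of the members was 0.87. With epb41, at 1.29, the count was 6 of 8.

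**Figure D4:**
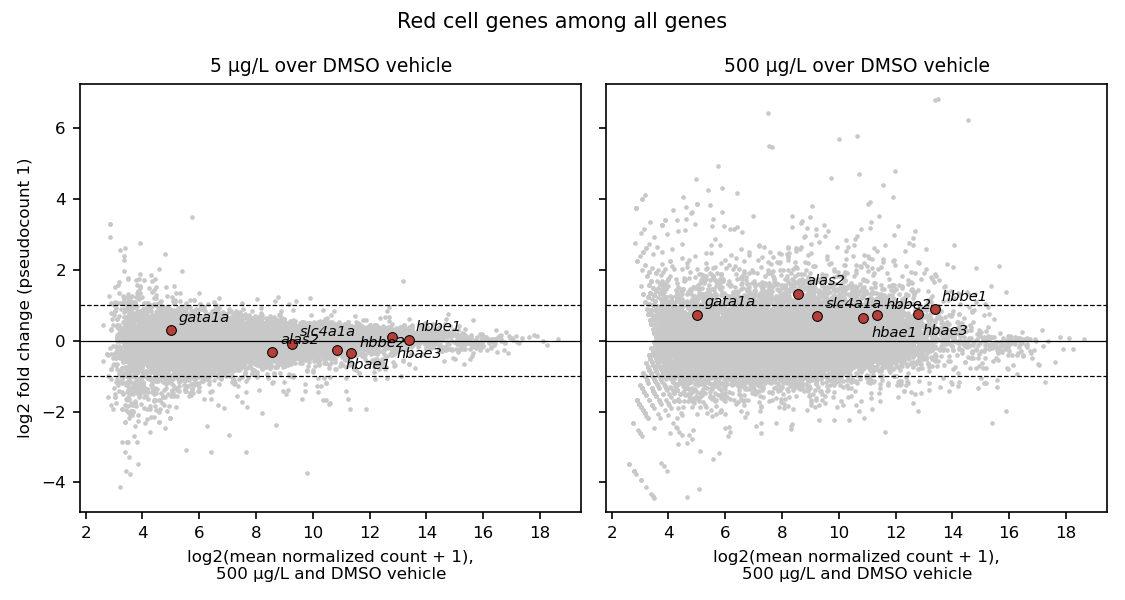
Log2 fold change with a pseudocount of 1 (vertical axis) against the log2 mean normalized count of the high dose and DMSO vehicle (horizontal axis), at the low dose (left) and the high dose (right), for all genes tested at the high dose (grey) and the 7 members that passed the minimum (red); dashed lines mark a fold change of 2 either way. The 7 members lie around 0 on the left (median -0.09) and above 0 on the right (median 0.73), where the cloud of all genes is also wider and alas2 alone passes the upper dashed line.

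The other genes of heme synthesis were read from a list of 21 measured genes, alas2 included. At the high dose, 3 were changed and all were higher, with a median log2 fold change of 0.43, and 14 had an interval wholly above 1 and 2 wholly below 1. The changed genes were 14.3% of the list, near the 12.1% of all genes tested, of which 31.0% had an interval above 1. Beside alas2 the changed genes were abcb10, at 2.53-fold (95% CI 2.16 to 2.96), and slc25a38b, at 2.21-fold (95% CI 1.91 to 2.56). The paralog slc25a38a was at 1.26, with an interval that includes 1 (0.998 to 1.60). Abcb10 is a transporter of the inner mitochondrial membrane needed for heme synthesis in mammalian erythroid cells, and Slc25a38 carries glycine into the mitochondrion for the step of Alas2. Of the enzymes that follow, alad was at a fold change of 0.709 (95% CI 0.606 to 0.828), while those of hmbsa and hmbsb, the genes for hydroxymethylbilane synthase, were 1.60 and 1.90. Further along the pathway the fold changes were 0.901 for uros, 1.21 for cpox, 0.816 for ppox and 1.35 for fech, whose enzyme inserts the iron, and urod had 377 normalized counts at the high dose, against 252 with vehicle. The transporter gene flvcr2 had the third lowest value of the list, at 0.867 (95% CI 0.589 to 1.26).

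The housekeeping synthase gene alas1 had many more reads than alas2, and its normalized counts were 3810 with vehicle, 2394 at the low dose and 5738 at the high dose. Its fold changes were 0.628 at the low dose (95% CI 0.597 to 0.661) and 1.51 at the high dose (95% CI 1.45 to 1.57), so that both synthase genes were lowest at the low dose and highest at the high dose. The reads on alas1 per read on alas2 were 17.9 with vehicle, 14.1 at the low dose and 10.7 at the high dose. At the low dose none of the 21 genes of the list was changed, beside 2.92% of all genes tested, and their median log2 fold change was -0.02.

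Of the 17 measured genes of iron handling, 1 was changed at the high dose. This was hamp1, for hepcidin, the liver hormone that lowers iron release into the blood, at 2.27-fold (95% CI 2.16 to 2.37). This was 5.88% of the list, beside 12.1% of all genes tested. The genes of iron uptake differed among themselves, with 1.90 for slc25a37 (mitoferrin, the iron importer of erythroid mitochondria), 1.66 for the transferrin receptor gene tfr1b, 1.04 for its paralog tfr1a (95% CI 0.795 to 1.35), 1.41 for tfr2 (95% CI 0.977 to 2.04) and 0.904 for the iron importer gene slc11a2. The ferritin genes lay on opposite sides of 1, with 1.52 for fth1a, which had 54326 normalized counts at the high dose, and 0.785 for fth1b, which had 1695. Lower values were also found for tfa, the plasma iron carrier transferrin, at 0.706, and for the iron exporter gene slc40a1, at 0.710. The median log2 fold change of the list was 0.32. In the list of 5 genes of heme breakdown and scavenging, hpx (hemopexin, which binds free heme in plasma) was changed at 3.83-fold (95% CI 2.81 to 5.28), hmox1, for the inducible heme oxygenase, had 0.523 (95% CI 0.481 to 0.569), and blvrb, hp and LOC100329531 (hmox2b) had 1.45, 0.934 and 1.45. The changed share of this list was 20.0%, beside 12.1% of all genes tested.

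The list of transcription factor genes of the erythroid lineage, gata1a included, had no common direction at the high dose. Over 21 measured genes the median log2 fold change was 0.00, with 11 above and 10 below their value with vehicle. The list also holds genes active outside erythrocytes, such as nfe2l1 and spi1, so its median is not one of erythrocytes alone. The only gene of the list that changed was nfe2l1, at 2.91-fold (95% CI 2.77 to 3.07), a gene that is active in most tissues. The gene nfe2, for an erythroid and thrombocyte factor, had 1.65 (95% CI 1.22 to 2.23), klfd (klf1 in RefSeq), which activates globin genes in mammals, had 1.53 with an interval that includes 1 (0.904 to 2.59), and tal1, lmo2 and zfpm1 had 1.00, 1.26 and 0.647. Among the rest, spi1, the myeloid factor gene, had 1.63, bcl11aa 0.737 and gata2a 0.768. The share of changed genes in the list was 4.76%, beside 12.1% of all genes. The gene gata2b was changed at the low dose, with 18 reads against 55 with vehicle and a fold change of 0.453. It was 4.76% of the list, beside 2.92% of all genes tested at that dose.

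The list of the red cell membrane and skeleton also had members on both sides, with a median log2 fold change of -0.06 over 19 measured genes at the high dose, slc4a1a and epb41 included. The changed genes were slc2a1b, a glucose transporter gene, at 3.47-fold (95% CI 3.12 to 3.85), and ca2, for a carbonic anhydrase, at 2.05-fold (95% CI 1.96 to 2.14), or 10.5% of the list beside 12.1% of all genes. The carbonic anhydrase gene cahz, which is expressed in zebrafish erythrocytes, had 1.62 (95% CI 1.53 to 1.72). Other red cell genes were lower in value, with 0.612 for ank1, the ankyrin gene of erythrocytes (95% CI 0.533 to 0.701), and 0.796 for rhag, a gene of the Rh protein family (95% CI 0.764 to 0.828). Of the spectrin and adducin genes, spna2 (alpha spectrin) had 0.619, add1 had 0.642 and sptb (beta spectrin) had 0.925 with an interval that includes 1 (0.847 to 1.01).

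Of 17 measured genes of erythropoietin signalling, 4 were changed upward and 1 downward at the high dose, with a median log2 fold change of 0.07. This was 29.4% of the list, beside 12.1% of all genes tested (7.40% higher). Those higher were socs3a (4.58-fold), socs1 (2.97-fold), socs3b (2.89-fold) and cish (2.57-fold), genes of feedback inhibitors that many cytokines induce. Among the genes not changed, stap2a had 0.614, jak2a, for a kinase of the receptor, 0.728 and kitlga 0.811. The hormone gene epo had 26 reads with vehicle, 18 at the low dose and 20 at the high dose. These were 20.6, 19.7 and 25.0 normalized counts in that order. Its fold change at the high dose was 1.22, with an interval that includes 1 (0.644 to 2.26). The receptor gene epor had 93 reads at the high dose, or 116 normalized counts, against 99 reads, or 78.2 normalized counts, with vehicle. The gene changed downward, LOC100002479 (epob), had 6 reads at the high dose and 25 with vehicle, at a fold change of 0.379 (95% CI 0.127 to 0.947). It was also changed at the low dose, at 0.387, with 7 reads, or 5.88% of the list beside 2.92% of all genes tested.

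In a list of 25 genes of red cell metabolism and antioxidant defence, 1 gene was changed at the high dose. This was pklr, the pyruvate kinase gene of liver and erythrocytes, at 0.253 (95% CI 0.242 to 0.264), and cat, for catalase, lay just outside the threshold at 0.504. Since pklr is also a liver gene, its value in whole larvae is not one of erythrocytes alone. The list had 4.00% of its genes changed, beside 12.1% of all genes tested. The median log2 fold change of the list was 0.25, with 16 intervals wholly above 1 and 7 wholly below 1. Of the 17758 genes tested, 5512 had an interval above 1 (31.0%) and 5432 had an interval below 1. Counting intervals narrow as reads increase, so in genes with many reads they can exclude 1 at small differences. The list was not compared with genes of similar read number. The list genes hk1, bnip3lb and prdx2 had 1.80, 1.71 and 0.744. The glutathione peroxidase gene gpx1b was at 1.84 at the high dose and changed at the low dose, at 0.484. It was 4.00% of the list at the low dose, beside 2.92% of all genes tested. Of 7 measured genes for chaperones of hemoglobin synthesis and for ageing red cells, 4 were changed and all were higher at the high dose: hsp90a (4.24-fold), hspa9 (2.58-fold), arg2 (2.55-fold) and eif2ak1 (2.28-fold), the last encoding the heme-regulated kinase that slows globin translation when heme is short. They were 57.1% of this short list, beside 12.1% of all genes tested (7.40% higher), and the other 3 genes, alox12, xpo7 and tspo, had 0.619, 0.674 and 1.09. The 4 changed genes are also expressed outside erythrocytes.

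**Figure D5:**
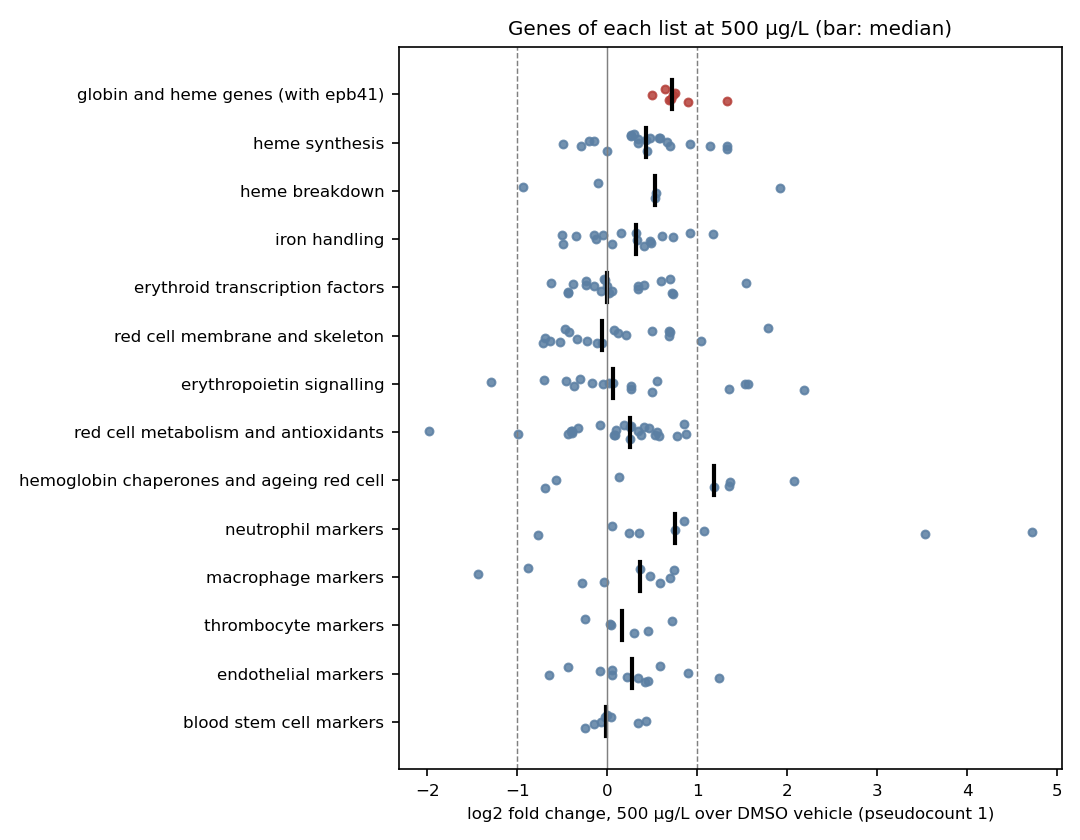
Log2 fold change at the high dose over DMSO vehicle with a pseudocount of 1 (horizontal axis) of each gene that reached 10 normalized counts, by list, with a black bar for the median of the list and the globin and heme genes, epb41 included, in red; vertical spread within a row has no meaning. The globin and heme genes lie between 0.50 and 1.33 (median 0.72), while the lists of transcription factors and of the membrane spread on both sides of 0 (medians 0.00 and -0.06). The medians of the neutrophil markers (0.76) and of the list of chaperones and ageing red cells (1.19) lie above that of the globin and heme genes. Those of the other lists lie below it.

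Markers of other blood and vessel cells differed between the libraries as well. Of 9 neutrophil markers, 3 were changed at the high dose, all higher: mmp13a (26.6-fold), mmp9 (11.6-fold) and cxcr4b (2.12-fold). They were 33.3% of the list, beside 12.1% of all genes tested, while lyz, ncf1 and npsn had 1.04, 1.18 and 1.29. The 9 markers summed to 87627 normalized counts with vehicle, 92841 at the low dose and 66269 at the high dose. Most of this was cpa5, a carboxypeptidase gene expressed in the pancreas, so the sum of the 9 is not one of neutrophils. Without cpa5, a sum that was not among the planned lists, the values were 8363, 5302 and 19810. Of the 19810 at the high dose, mmp9 gave 5094, lect2l 4767 and mmp13a 3219, against 439, 2643 and 121 with vehicle. The sum without cpa5 thus rests largely on a few genes, and whether it follows the number of neutrophils was not tested. The myeloperoxidase gene mpx had fold changes of 0.559 at the low dose and 1.69 at the high dose. Of the neutrophil list only lect2l was changed at the low dose, at 0.261, or 11.1% of the list beside 2.92% of all genes tested. The 9 macrophage markers summed to 5966 normalized counts with vehicle, 3963 at the low dose and 5935 at the high dose. At the high dose 1 of them was changed, iclp1 (cd74a) at 0.365, with lcp1 at 0.542 and coro1a at 0.822, against irf8 at 1.67 and spi1 at 1.63. The 2 changed at the low dose were mfap4, at 0.320, and LOC571584 (marco), at 0.377. The changed share of the macrophage list was 11.1% at the high dose, beside 12.1% of all genes tested. At the low dose it was 22.2%, beside 2.92%. The 6 thrombocyte markers summed to 944, 959 and 1218 in order of dose, the 12 endothelial markers to 5389, 5668 and 7500, and the 8 blood stem cell markers to 5978, 6346 and 5463. Most of the stem cell sum was meis1, at 3984, 4338 and 3359 in the same order. At the high dose 4 of the 8 stem cell markers lay above their value with vehicle and 4 below. Most of the thrombocyte sum was fli1a, which is also in the endothelial list, at 543, 566 and 750. Of these lists, cldn5b, an endothelial tight junction gene, was the only gene changed at the high dose, at 2.36-fold, and gata2b the only one at the low dose. They were 8.33% of the endothelial list and 12.5% of the stem cell list, beside 12.1% and 2.92% of all genes tested at these doses. None of these markers was at 0 in any of the 3 libraries, and their part in the values of the globin and heme genes was not tested.

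The genes whose pair of log2 fold changes at 5 and 500 μg/L lay nearest to that of alas2 (-0.33 and 1.33) were sought among 7660 genes that reached 500 normalized counts in any library. They were ociad2, tinagl1, LOC100331484 (ier2b), LOC100536533 and tbc1d2, at distances of 0.048 to 0.126 on the log2 scale. Nearest to the median of the globin members (-0.12 and 0.74) were copeb (klf6a), guca1b, pptc7, LOC100004261 (map3k14a) and xirp2a, at distances of 0.005 to 0.019. Each pattern has 2 points that share the vehicle library.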

How the data were processed

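Total RNA of pooled whole larvae was sequenced as poly(A)-selected libraries (1 per condition). The authors mapped reads to Zv9 and hg19 and deposited a signal per gene, the count after TMM normalization. The counting tool, annotation and strand handling are not given in the sources used here. Divided by the value of 1 read (0.790, 1.09 and 1.25 normalized counts for vehicle, 5 μg/L and 500 μg/L), 100% of the values came out whole within 0.00264 of a read, and these reads were used for all intervals. A floor of 3 reads thus stood for 2.37, 3.28 and 3.75 normalized counts in that order. With 1 library per condition the fold changes are given without p-values, and tests of 2 libraries against each other (Fisher's exact test, edgeR, and MARS from DEGseq) served only as alternatives. On the recovered reads, the exact test of edgeR (assumed BCV, the biological coefficient of variation, 0.2, with the fold change threshold) called 687 genes for 500 μg/L and 5 for 5 μg/L.

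Entries named only by a clone prefix (11 entries, with 15.8% to 16.1% of the reads of a library) were left out, which left 19814 named mRNA genes. Of 21098 entries, 14902 had a gene ID in the RefSeq table of assembly GRCz12tu, which was used for names and for the order of neighbouring genes. No coordinates are given, since the builds differ. Levels per coding length were not computed, since no coding lengths were at hand. Where levels are compared between genes, this is in reads or normalized counts that are not corrected for length. The number of value columns not used was 0, and the blank control was not analysed here. The members and lists were chosen with earlier results of these data known. The rule for named genes took all members, all globin entries, in each list up to 3 genes with the largest and 3 with the smallest fold change at 500 μg/L and each changed gene among those with at least 50 normalized counts, and the 5 genes nearest to alas2 and to the globin median. Some of the genes it takes from the lists of other globins, thrombocyte, endothelial and stem cell markers are not described. Other genes of the lists (alas1, hmbsa, hmbsb, uros, urod, cpox, fech, slc25a38a, klfd, tal1, lmo2, gata2b, epo, epor, LOC100002479, mpx, npsn, tfr1a, tfr2, slc11a2, fth1a, rhag and sptb) were named after their values were seen. The methods were tested on simulated counts that held counting error only, with no variation between pools. The simulated fold changes were larger than those of the members that passed the minimum, so changes of their size were not checked. Tools were edgeR 4.0.16 in R 4.3.3 and, in Python 3.11.15, scipy 1.17.1, pandas 2.3.3, numpy 2.4.6 and, for the figures, matplotlib 3.10.9.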

Additional observations from a re-analysis of the deposited data

Results flagged for a closer look

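For 3 members the values of the low (5 μg/L) and the high dose (500 μg/L) lay on opposite sides of DMSO vehicle, with both counting intervals clear of 1. The share of all genes with this pattern was not counted, so the pattern is not shown to be particular to the members. Over all genes tested, 17.8% had an interval below 1 at the low dose and 31.0% had one above 1 at the high dose. The beta-type globin gene hbbe2 was at 0.789-fold at the low dose and 1.64-fold at the high dose. The alpha-type gene hbae1 was at 0.833-fold and 1.56-fold in that order, and alas2 at 0.797-fold and 2.52-fold. Each dose had 1 library and the vehicle library entered both fold changes, so the difference between the doses was not tested against any spread between pools. The alpha-type gene hbae3 and the beta-type gene hbbe1, which had more reads, were at 1.07-fold and 1.02-fold at the low dose.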

How the results depend on the processing

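The 42 fold changes of the members recomputed under other scalings or with a pseudocount of 5 stayed on their side of 1 and within their counting intervals, and the scalings moved the median of all genes by at most 0.04 on the log2 scale. The number of members changed at 500 μg/L against DMSO vehicle was 2 (hbbe3 and alas2) with no filter, and also by the MARS test of DEGseq and Fisher's exact test, which were run with no minimum, 0 by edgeR at either assumed BCV (0.2 and 0.4), and 7 at a fold change of 1.5, which was chosen after seeing the data. Each test was combined with the fold change threshold, so members that did not reach it could not be called by a test. At 5 μg/L the number of members changed was 1 (hbbe3) with no filter. Between 500 μg/L and 5 μg/L it was 1 (alas2) by edgeR with a BCV of 0.2, 0 with 0.4, and 6 at a fold change of 1.5.

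Of all genes, 687 were changed at 500 μg/L with a BCV of 0.2 (76.9% higher, against 61.0% by the fold change alone), 19 with 0.4 and 5659 at a fold change of 1.5. At 5 μg/L the counts were 1622 with no filter, 126 with a minimum of 50 normalized counts, 5 and 0 by edgeR with a BCV of 0.2 and 0.4, and 1648 at a fold change of 1.5. Between the doses they were 3123 with no filter, 592 and 29 by edgeR, and 5249 at a fold change of 1.5. No paired analysis was possible because each condition had 1 library. Leaving out a replicate was not possible either. The depth limits gata1a and hbbe3 most, and no interval holds the spread between larvae, pools or library preparations.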
